A study of Arabidopsis thaliana with 6 samples.

Results

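The response regulator (RR) genes of Arabidopsis thaliana encode the last relay of cytokinin signalling. They were taken here as every gene whose symbol is RR or ARR followed by a number, each with a probe set that names that gene alone. RefSeq lists 24 such genes, and 8 of them were measured under their own name among 16405 named genes on the arrays. The 8 are ARR15, RR16, RR18, RR19, RR21, RR22, RR23 and RR24 (names with RR alone are also written ARR). Each was represented by 1 probe set, and none of these probe sets had values identical to those of another. The other 16 RR genes, among them ARR4, RR5, ARR6, ARR7, RR1, RR2, RR10 and RR12, were not analysed here, so the 8 do not stand for the family.

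The samples were ara6-1, a knock-out line for the plant-specific RAB5 GTPase ARA6, and the wild type (WT), with 3 biological replicates of each. Both are of the Columbia accession, and ara6-1 was the 1 mutant line measured. Plants spent 1 day at 4 °C and then grew under continuous light at 23 °C on MS plates, and whole plants were taken for RNA at an age of 14 days. Each sample was hybridized to 1 Affymetrix array, and values below are log2 of the probe set intensity, a relative scale on which levels of different probe sets cannot be set against each other. In whole plants, fewer cells of a type and less RNA per cell cannot be told apart.

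Cytokinin is sensed by hybrid histidine kinases in the membrane, and the phosphoryl group passes through small phosphotransfer proteins to the RR proteins in the nucleus. Type-B RR proteins are transcription factors that carry a DNA-binding domain beside the receiver domain and switch on cytokinin-responsive genes. Type-A RR genes are among those targets, and their short proteins damp the signal in turn, so that type-A transcripts are widely read as a sign of cytokinin response. Type-C RR proteins consist of little more than a receiver domain, and their genes are not induced by cytokinin. The 8 measured genes cover 2 of the 10 type-A genes (ARR15 and RR16), 3 of the 11 type-B genes (RR18, RR19 and RR21) and both type-C genes (RR22 and RR24). RR23 was placed in none of the 3 classes.

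The arrays were comparable in overall level, with median intensities of 28.9 to 29.2 in ara6-1 and 28.8 to 29.1 in WT over 28501 probe sets. ARA6 itself (AT3G54840) had log2 intensities of 6.98, 7.15 and 6.89 in ara6-1, against 7.99, 8.40 and 8.34 in WT, so the labels hold on every array, and a signal remained in the mutant. Its log2 fold change of -1.24, or 2.35-fold lower, did not pass the adjusted threshold either (limma, adjusted p = 0.14). Of 12 root markers, PYK10, EXPA7 and EXPA18 were measured, and of 10 markers of green tissue LHCB4.1, SBPASE and RCA. None of these 6 passed the test, with log2 fold changes from -0.03 for EXPA18 to 0.17 for LHCB4.1. PYK10 and LHCB4.1 were higher on all ara6-1 arrays than on any WT array, by a gap of 0.04 each, as were 7.81% of all probe sets. In EXPA7, EXPA18, SBPASE and RCA the groups overlapped. Of 6 flower markers 0 were measured, and of 4 shoot meristem markers CLV3, at log2 intensities of 1.07 to 1.32 in ara6-1 and 1.07 to 1.26 in WT, near the bottom of the arrays. ara6-1 replicate 1 and WT replicate 3 stood apart. Over probe sets above the median intensity, the deviation from the group mean had an SD of 0.165 on ara6-1 replicate 1 and 0.169 on WT replicate 3, and of 0.12 to 0.126 on the other 4 arrays.

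In limma, none of the 8 RR genes passed the threshold of 0.05 for the p adjusted over all probe sets by the Benjamini-Hochberg method. Over the whole array 3 probe sets did, or 0.0105% of those tested. The genes with the smallest p were RR16 and RR18, both lower on all 3 ara6-1 arrays than on any WT array, by 1.47-fold and 1.3-fold. ARR15 differed more between WT replicates than between genotypes. The remaining 5 genes lay near the low end of the arrays and differed by 1.16-fold or less. At an unadjusted p under 0.05 in limma, 2 of the 8 were lower in ara6-1 and 0 higher. Of all probe sets 9.01% had such a p, with 5.39% lower and 3.63% higher in ara6-1. The count of 2 was 1 without ara6-1 replicate 2, where RR18 had an unadjusted p of 0.054 in limma. It was 3 without WT replicate 3, with ARR15 added, and 3 without ara6-1 replicate 3, with RR19 added. With ara6-1 replicate 1 and WT replicate 3 both left out it stayed 2, but ARR15 took the place of RR18. Their unadjusted p-values in limma were then 0.0156 for ARR15 and 0.0664 for RR18.

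RR16 (AT2G40670, chromosome 2) is a type-A gene, and its product is a negative regulator of cytokinin signalling. Its log2 intensity was 6.66, 6.49 and 6.17 in ara6-1 replicates 1 to 3, against 7.04, 7.02 and 6.91 in WT replicates 1 to 3. The highest mutant value lay 0.25 below the lowest WT value, so the groups did not overlap. The means were 6.44 ± 0.25 in ara6-1 and 6.99 ± 0.07 in WT (SD, n = 3 each). On the log2 scale ara6-1 minus WT came to -0.55 (SE 0.14), with a 95% interval from -0.88 to -0.23 (limma, unadjusted p = 0.00498, adjusted p = 0.506). By unadjusted p it ranked at position 280 of 28501 probe sets. The WT replicates of RR16 were close together, within 1.1-fold, while the mutant replicates spanned 1.4-fold. Among 1425 probe sets of like intensity, the SD in ara6-1 stood at percentile 93.4 and the SD in WT at percentile 26.6.

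ARR15 (AT1G74890, chromosome 1), the other type-A gene, is a cytokinin-induced gene known from the shoot apical meristem, where it and ARR7 restrain the cytokinin response. Its log2 intensity was 5.37, 5.34 and 5.41 in ara6-1 replicates 1 to 3, against 6.0, 6.72 and 4.52 in WT replicates 1 to 3. On the linear scale these are intensities of 41.3, 40.6 and 42.5 in ara6-1 and of 63.9, 105.5 and 22.9 in WT. The mutant values were nearly equal and lay inside the WT range, below WT replicates 1 and 2 and above WT replicate 3. The means were 5.37 ± 0.03 in ara6-1 and 5.75 ± 1.12 in WT (SD, n = 3 each). The WT replicates spanned 4.61-fold, against 1.05-fold in the mutant. The WT SD of ARR15 was the highest among the 1425 probe sets of like intensity, and it ranked at position 13 of the 16405 named genes. Its SD in ara6-1 stood at percentile 4.21 of the same 1425.

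For ARR15 the log2 fold change was -0.37 (SE 0.49), with a 95% interval from -1.51 to 0.77 (limma, adjusted p = 0.825). The interval covers both a lower and a higher level in ara6-1. The value turned on single WT arrays. Without WT replicate 3, an array that stood apart, the log2 fold change was -0.99 (limma, unadjusted p = 0.00323, adjusted p = 0.358), and without WT replicate 2 it was 0.12 (adjusted p = 0.947). With ara6-1 replicate 1 and WT replicate 3 both left out it was -0.98 (limma, adjusted p = 0.349). The part of WT replicate 3 as an array in the spread of ARR15 was not tested. On that array RR16 was 0.08 below its WT mean, while ARR15 was 1.23 below its own. Both type-A genes were above their WT means on WT replicates 1 and 2, by 0.25 and 0.98 for ARR15 and by 0.05 and 0.03 for RR16. Deviations from a mean balance out by construction, and those of RR16 were small, so these values do not show that both genes moved together.

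**Figure D1:**
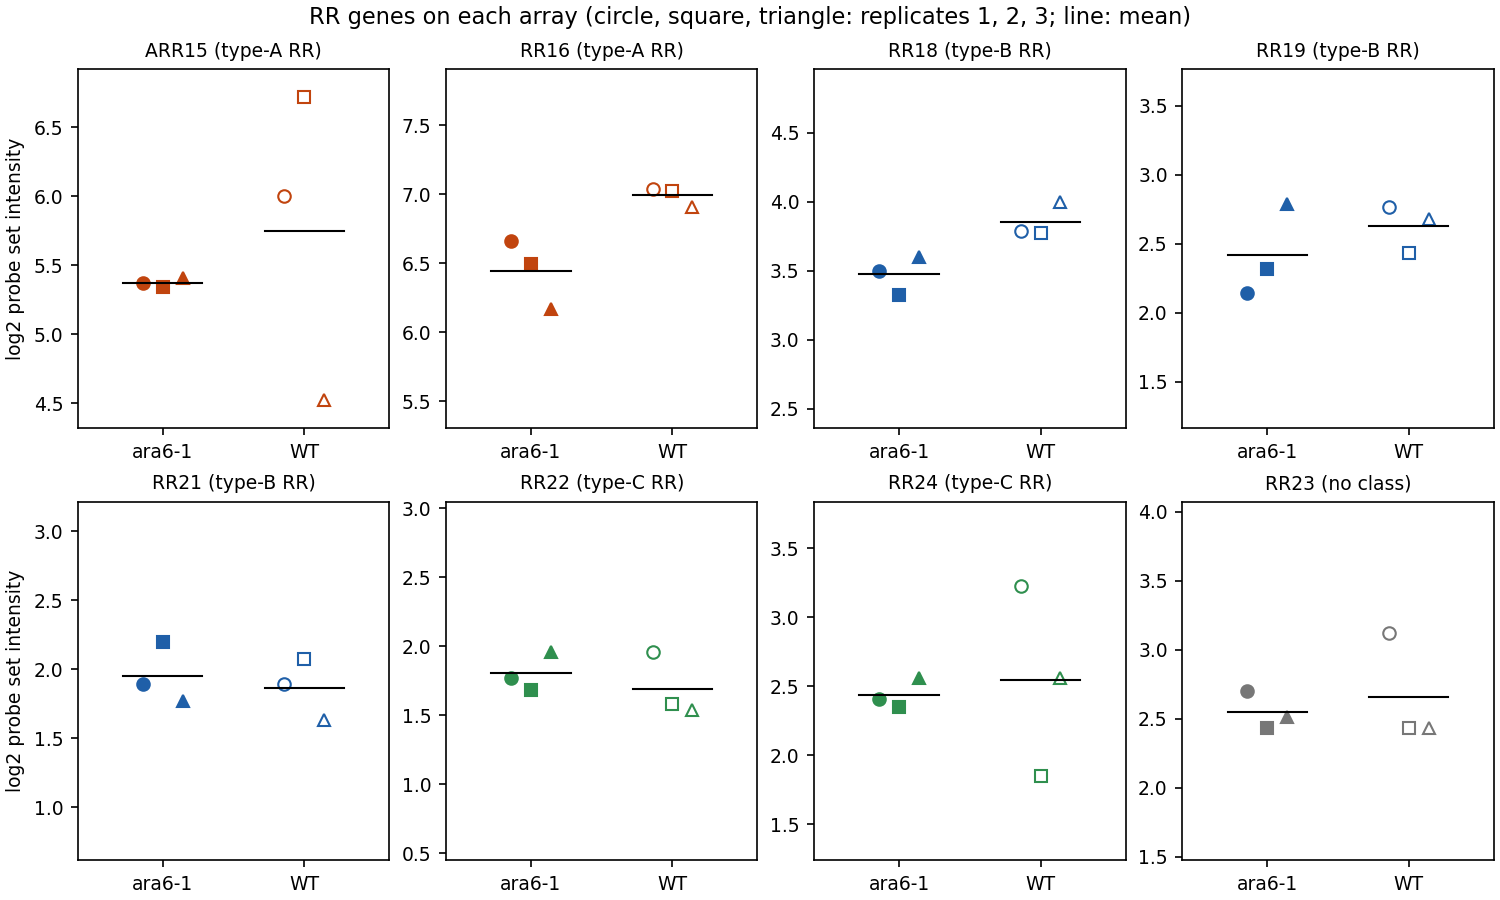
Log2 probe set intensity of the 8 RR genes on each array, with ara6-1 at the left (filled) and WT at the right (open) of each panel; circles, squares and triangles are replicates 1, 2 and 3, lines are group means, and every panel spans the same number of log2 units. The groups are apart for RR16 and RR18, and the 3 WT values of ARR15 range from 4.52 to 6.72 around nearly equal mutant values.

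Among the type-B genes, RR18 (AT5G58080, chromosome 5), which encodes a DNA-binding activator of the cytokinin response, had the clearest separation. Its log2 intensity was 3.50, 3.32 and 3.60 in ara6-1 replicates 1 to 3, against 3.79, 3.77 and 4.00 in WT replicates 1 to 3. All mutant values were below all WT values, with a gap of 0.17. The means were 3.47 ± 0.14 in ara6-1 and 3.85 ± 0.13 in WT (SD, n = 3 each), at percentile 35.0 of all probe sets. Its log2 fold change was -0.38 (SE 0.12), with a 95% interval from -0.66 to -0.10 (limma, unadjusted p = 0.0142, adjusted p = 0.517). The replicate spread of RR18 was unremarkable, at percentile 33.5 in ara6-1 and 23.5 in WT among probe sets of like intensity. At so dim a signal a fold change can be understated, and it also depends on the scale. With 8 added before the logarithm, the value for RR18 was -0.23 (limma, adjusted p = 0.419).

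The other type-B genes were dimmer. RR19 (AT1G49190, chromosome 1), a type-B gene by its sequence, had log2 intensities of 2.14, 2.32 and 2.79 in ara6-1, against 2.77, 2.43 and 2.68 in WT. The groups overlapped, since ara6-1 replicate 3 was the highest of all 6 arrays. RR19 had a log2 fold change of -0.21, with a 95% interval from -0.64 to 0.22 (limma, adjusted p = 0.737). Without ara6-1 replicate 3 it was -0.40 (limma, adjusted p = 0.792). RR21 (AT5G07210, chromosome 5), a type-B gene known mainly from reproductive organs, had log2 intensities of 1.89, 2.20 and 1.77 in ara6-1, against 1.89, 2.07 and 1.63 in WT. The 2 groups covered nearly the same range, and the log2 fold change was 0.09, with a 95% interval from -0.29 to 0.46 (limma, adjusted p = 0.878).

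Both type-C genes are known from reproductive tissue, RR22 from flowers and developing pods and RR24 from pollen. RR22 (AT3G04280, chromosome 3) had log2 intensities of 1.77, 1.68 and 1.96 in ara6-1, against 1.96, 1.58 and 1.54 in WT. These are linear intensities of 3.2 to 3.9 in ara6-1 and 2.9 to 3.9 in WT, next to the 5th percentile of all intensities, which was 2.9 to 3 in ara6-1 arrays and 3 to 3.2 in WT arrays. Its probe set stood at percentile 6.84 of all probe sets by mean intensity. The values carry no detection call, so a transcript near zero cannot be told from one at a low level. Between the genotypes RR22 had a log2 fold change of 0.11, with a 95% interval from -0.23 to 0.45 (limma, adjusted p = 0.83).

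RR24 (AT5G26594, chromosome 5) had log2 intensities of 2.41, 2.35 and 2.56 in ara6-1, against 3.23, 1.85 and 2.56 in WT. As with ARR15, the mutant values were close together inside a wide WT range. The SD was 0.11 in ara6-1 and 0.69 in WT, at percentiles 20.5 and 98.7 among probe sets of like intensity. The array that stood out was another one here, since WT replicate 1 was the highest and WT replicate 2 the lowest. Its log2 fold change was -0.11, with a 95% interval from -0.84 to 0.62 (limma, adjusted p = 0.929). Its sign turned without WT replicate 1, to 0.23 (limma, adjusted p = 0.817). At linear intensities of 5.1 to 5.9 in ara6-1 and 3.6 to 9.4 in WT, the signal of RR24 was low on every array.

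RR23 (AT5G62120, chromosome 5) had log2 intensities of 2.70, 2.43 and 2.51 in ara6-1, against 3.12, 2.43 and 2.43 in WT. WT replicate 1 was the highest of the 6, and the other 5 arrays lay close together. RR23 had a log2 fold change of -0.11, with a 95% interval from -0.58 to 0.35 (limma, adjusted p = 0.871), and without WT replicate 1 it was 0.12 (adjusted p = 0.846).

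**Figure D2:**
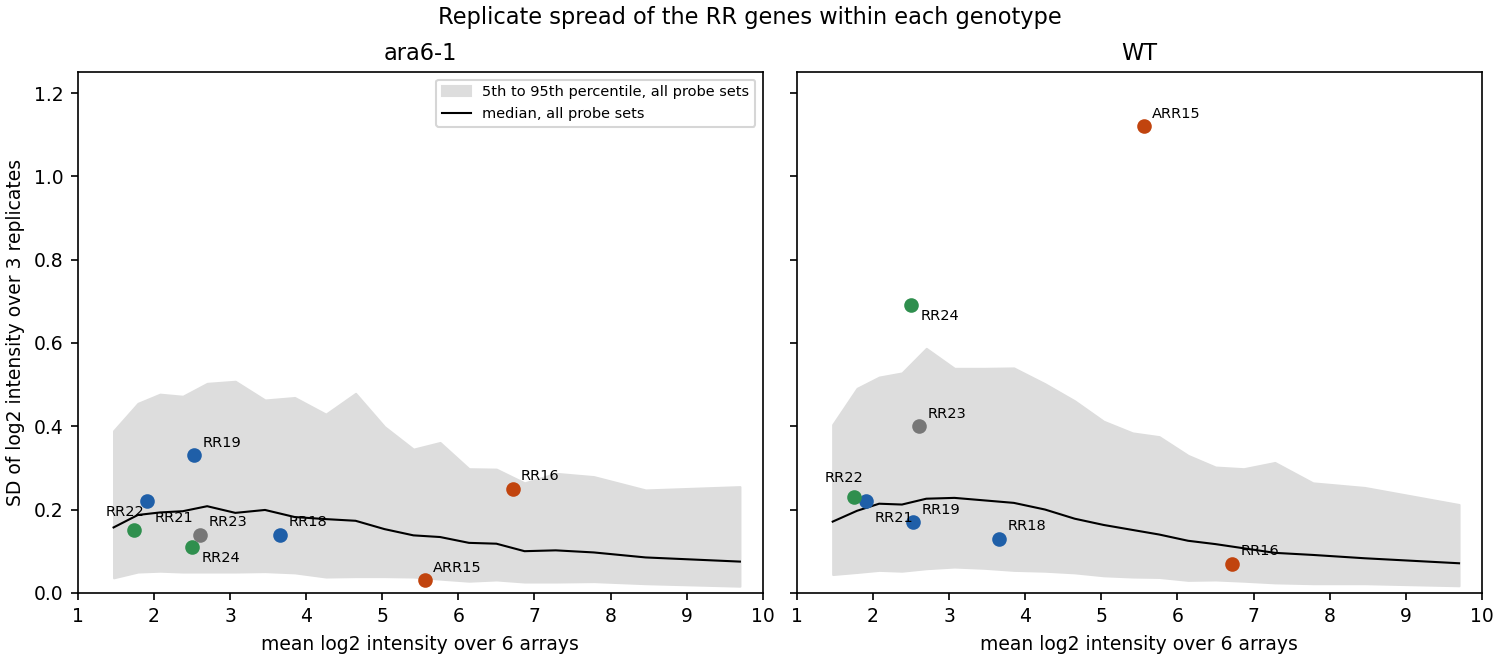
SD of log2 intensity over the 3 replicates of ara6-1 (left) and WT (right) against the mean log2 intensity over all 6 arrays. The grey band holds the 5th to the 95th percentile and the line the median of all 28501 probe sets in 20 bins of intensity; points are the RR genes (orange type-A, blue type-B, green type-C, grey RR23). ARR15 (SD 1.12) and RR24 (SD 0.69) lie above the band in WT, while in ara6-1 no RR gene does.

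Across the 8 genes, 6 log2 fold changes were negative and 2 positive (RR21 and RR22). The median was -0.16, beside -0.00182 over all probe sets tested, of which 50.4% had a negative value. In 2 of the 8 the groups did not overlap, both lower in ara6-1, and in 0 were they apart with ara6-1 higher. Over the whole array the groups did not overlap in 15.7% of probe sets, with 7.85% lower and 7.81% higher in ara6-1. For RR16 and RR18 the exact two-sided permutation test of 3 arrays against 3 gave p = 0.10, the smallest that this design allows. The median of the 8 also moved with 1 array, to -0.02 without WT replicate 1. On that array 7 of the 8 genes were above their WT mean, RR18 being the exception. WT replicate 1 also had the highest 5th percentile of intensity of all arrays, 3.2. With 8 genes, 5 of them below the log2 intensity of 3.52 that bounds the dimmest 33% of probe sets, these counts and the median are a description of these probe sets.

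**Figure D3:**
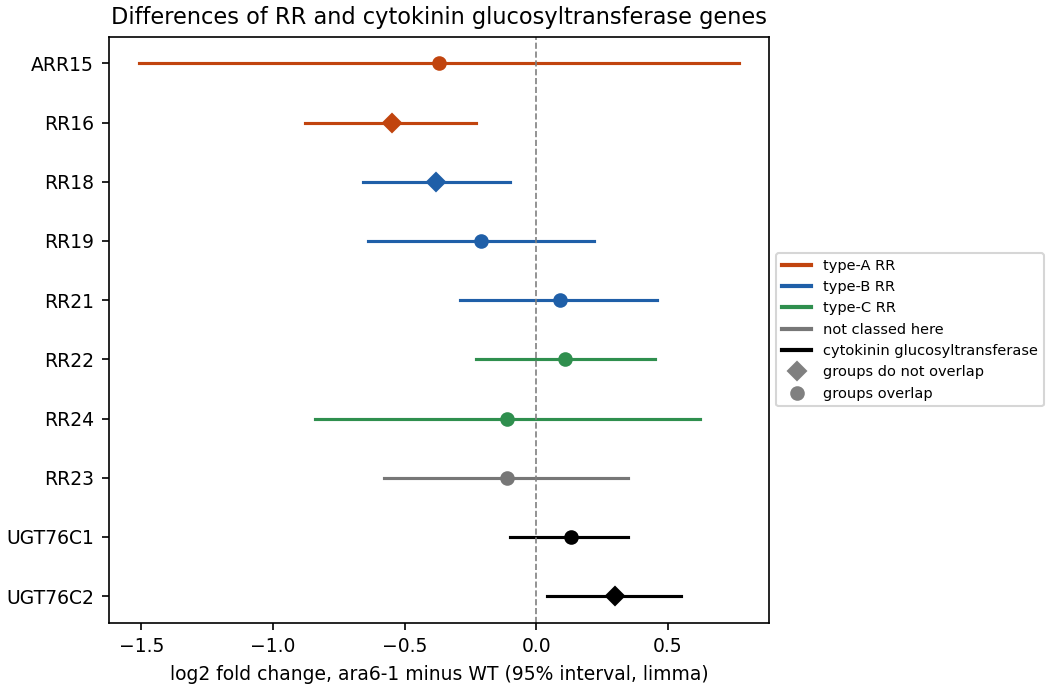
Log2 fold change, ara6-1 minus WT, of the 8 RR genes and of UGT76C1 and UGT76C2, with 95% intervals from limma; diamonds mark genes whose groups do not overlap. The interval of ARR15 is the widest of the 10 (-1.51 to 0.77), and those of RR16, RR18 and UGT76C2 do not include 0, although none of the 10 passed after adjustment.

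With any single array left out, the difference lay between -0.66 and -0.42 for RR16 and between -0.44 and -0.30 for RR18. With ara6-1 replicate 1 and WT replicate 3 both left out, the differences were -0.70 and -0.32 (limma, adjusted p = 0.349 and 0.412). Only their size could vary in these fits. The groups of both genes did not overlap, so no choice of arrays left out could turn the sign. In no such fit did either gene pass the adjusted threshold. Where limma's prior variance was allowed to depend on intensity, the adjusted p of RR16 was 0.235, its smallest in any of the alternatives run.

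**Figure D4:**
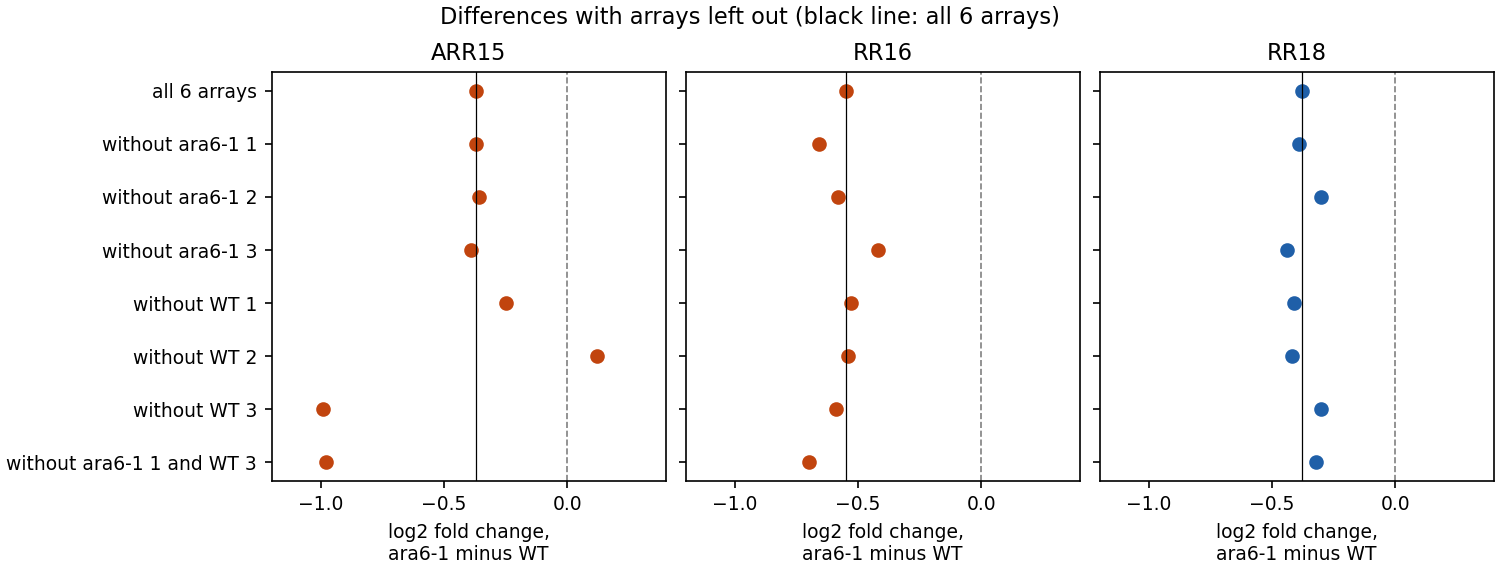
Log2 fold change, ara6-1 minus WT, of ARR15, RR16 and RR18 with all 6 arrays and with the named arrays left out; the black line is the value with all 6 and the dashed line is 0. RR16 and RR18 could not cross 0 here, since their groups do not overlap. ARR15, whose groups overlap, lies at -0.99 without WT replicate 3 and at 0.12 without WT replicate 2.

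Of 64 other genes listed for the cytokinin pathway and its relatives, 2 were measured under their own name, and 0 passed in limma in either direction (1, UGT76C2, at an unadjusted p under 0.05 and higher in ara6-1, as were 3.63% of all probe sets). That count of 1 was 0 when replicate 2 or 3 of ara6-1, or replicate 1 or 3 of WT, was left out, and with a prior variance tied to intensity. Both genes encode glucosyltransferases that inactivate cytokinins by attaching glucose to the ring. UGT76C2 (AT5G05860, chromosome 5) had log2 intensities of 3.22, 3.45 and 3.42 in ara6-1, against 2.98, 3.17 and 3.04 in WT. All mutant values were above all WT values, by a gap of 0.05. Its log2 fold change was 0.30, with a 95% interval from 0.04 to 0.55 (limma, unadjusted p = 0.028, adjusted p = 0.542). UGT76C1 (AT5G05870, chromosome 5) had log2 intensities of 5.43, 5.44 and 5.33 in ara6-1, against 5.19, 5.33 and 5.29 in WT. The groups overlapped, and the log2 fold change was 0.13, with a 95% interval from -0.10 to 0.35 (limma, adjusted p = 0.698). The listed receptors and other histidine kinases (6), phosphotransfer proteins (6), synthesis and activation genes (19), response factors and targets (12), F-box genes of type-B turnover (4) and pseudo-response regulators (5) were not analysed here.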

How the data were processed

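RNA was labelled with a whole-transcript biotin kit for Affymetrix arrays, per the labels' protocols. The deposited values are linear intensities, 1 per probe set and array, which the authors made, per the submitters' processing notes, with Affymetrix Expression Console 1.3. Genome build, annotation and summarization algorithm are not given in the sources used here, so no coordinates are printed. The arrays had nearly equal medians and were not normalized here for the main fit. At the low end they differed more, with 5th percentiles from 2.9 on ara6-1 replicate 2 to 3.2 on WT replicate 1.

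Of 38408 rows, 28501 written to 1 decimal or fewer were tested; the other 9907, whose nature is not given in the sources used here, were left out. Of those tested, 16704 (58.6%) named 1 gene in the platform's probe table. Symbols were updated by gene identifier through RefSeq (TAIR10.1), which found 16405 genes, each represented by its brightest probe set.

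Log2 intensities were fitted in R 4.3.3 by limma 3.58.1 (lmFit, eBayes, constant prior variance, 4 residual and 3.31 prior degrees of freedom). Tests were two-sided, and p-values were adjusted by the Benjamini-Hochberg method over all 28501 probe sets, at a threshold of 0.05. SEs and 95% intervals are from this fit, which was tested on simulated data. Replicate percentiles refer to 20 bins of mean intensity. Every measured RR gene is named. From each pathway list the rule names members past the threshold, filled up to 3 by smallest p. The members and lists were chosen with earlier results of these data known. The number of arrays limits the precision. The labels do not say how the biological replicates were raised apart, so p-values measure the spread between these samples.

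The alternatives left out the dimmest 33% of probe sets (mean log2 intensity below 3.52), applied quantile normalization, centred arrays or let the prior variance follow intensity. Others dropped moderation, weighted arrays, used the replicate number as a block or added 8 before the logarithm. The rest took all rows, averaged probe sets of a gene, left out arrays or loosened the threshold to 0.1.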

Additional observations from a re-analysis of the deposited data

How the results depend on the processing

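In 126 of 131 refits of single RR genes the direction and the side of the threshold stayed as reported, and in 0 did a gene cross the threshold (lowest adjusted p in limma 0.235). The sign turned in 5: RR24 without WT replicate 1 (0.23), RR23 without WT replicate 1 (0.12), ARR15 without WT replicate 2 (0.12), and RR21 without WT replicate 3 (-0.03) or ara6-1 replicate 2 (-0.04). In part of the 131 refits the direction could not turn, so their number is no measure of stability. Changing the prior variance, moderation, block or rows, or averaging 1 probe set, leaves the log2 fold change as it was. Nor could leaving out arrays turn RR16 or RR18, whose groups did not overlap. With 1 array left out the log2 fold change ranged from -0.99 to 0.12 for ARR15 and from -0.04 to 0.19 for RR21. It ranged from -0.23 to 0.12 for RR23 and from -0.46 to 0.23 for RR24. The cause was not tested. The count of RR genes past the threshold was 0 in every alternative, as was that of other cytokinin genes, also at an adjusted p of 0.1. The median log2 fold change of the RR genes was -0.38 with the dimmest 33% of probe sets left out, where 3 of the 8 remained, and between -0.28 and -0.02 with 1 array left out. With quantile normalization of the deposited values it was -0.10, beside -0.16 in the main fit. The 5 genes in the dimmest 33% then moved upward without a turn of sign. RR19 came to -0.14, RR24 to -0.04, RR23 to -0.05, RR21 to 0.15 and RR22 to 0.17. The 3 probe sets past the threshold over the whole array became 16 with the prior variance tied to intensity, 7 with 8 added before the logarithm, 1 without ara6-1 replicate 1 and WT replicate 3, 0 with an unmoderated test (2556 at an unadjusted p under 0.05), and 2 to 4 with 1 array left out. Across probe sets above the median, the deviations of same-numbered arrays correlated weakly for replicate 2 (r = 0.174) and negatively for replicates 1 and 3 (-0.196 and -0.15). The highest correlation was between ara6-1 replicate 1 and WT replicate 3 (0.289), so the numbers were not taken as pairs. With the replicate number as a block, 0 RR genes and 2 probe sets passed. The median of the RR genes stayed at -0.16 by construction, since each group holds every replicate number once. Signal limits 5 of the 8 genes, which lie in the dimmest 33% of probe sets.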

Other observations

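The wide WT spread of ARR15 was set beside that of other named genes, a choice made after its values were seen. Among the 50 named genes with the largest WT SD (0.83 or more, median 1.00), 10 had the order of the WT arrays seen in ARR15, with replicate 2 highest and replicate 3 lowest. That is 20% of the 50, beside 17.6% of all 16405 named genes. ARR15 is itself among the 50 and is included in these counts. WT replicate 3 was the lowest array in 18 of the 50 (36%, beside 35.3% of all) and the highest in 24 (48%, beside 34.3% of all). The median SD of the 50 in ara6-1 was 0.40, and ARR15 with 0.03 lay far below it. It was not alone in this, since AT5G52160 (0.03), AT3G49305 (0.05) and AT3G29970 (0.06) were about as low. Since the 50 were chosen for their WT spread, a smaller SD in the mutant is no finding about them.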
